A study of Mus musculus with 6 samples.

Results

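Lower-villus enterocytes, the absorptive cells of the small intestine below the villus tip, were defined by their counts of unique molecular identifiers (UMIs, each standing for 1 captured RNA molecule). A barcode was a member when it carried at least 5000 UMIs, at most 30% mitochondrially encoded (mt-) UMIs, no UMI of the leukocyte gene Ptprc and under 0.2% Muc2, the goblet cell mucin. It also needed at least 4 of the 6 enterocyte genes Alpi, Lct, Mep1a, Mttp, Treh and Slc5a1, and no UMI of the 5 tip genes Nt5e, Ada, Slc28a2, Clca4a and Ly6m. This rule was met by 83 of 60706 barcodes, which were 0.902% of the 9197 barcodes that met every criterion apart from the absence of tip genes. Control libraries 1, 2 and 3 held 25, 14 and 22 members, and IE-HuR-/- libraries 1, 2 and 3 held 7, 6 and 9.

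Enterocytes are born in the crypt and move up the villus as they age. Along this path their gene program changes, from antimicrobial lectins near the villus base through nutrient transporters in the middle to purine metabolism and apolipoprotein A4 near the tip. HuR, the product of Elavl1, is an RNA-binding protein that attaches to uridine-rich elements of many messenger RNAs and affects their stability and translation.

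The study asked how loss of HuR from the intestinal epithelium changes the cells of the small intestinal mucosa. IE-HuR-/- mice carried 2 floxed HuR alleles and villin-Cre, a recombinase driven by a promoter active throughout the intestinal epithelium. Control littermates, labelled wild-type, had the floxed alleles without Cre. All were young adult mice of C57BL/6 background, matched for age and gender. The labels state normal feeding, whereas the methods state that food was withheld before experiments. There were 3 libraries per label, 1 animal each, from villus-rich and crypt-rich cells combined after EDTA and enzyme treatment.

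The members were few and shallow. The 6 libraries held 79794848, 91818560 and 66396951 UMIs for control and 59518012, 65526044 and 65925616 for IE-HuR-/- replicates 1 to 3. The member barcodes of a library summed to 389660, 212275 and 521385 UMIs in control and to 101079, 95390 and 159189 in IE-HuR-/-. The control sums were thus all larger than the IE-HuR-/- sums. Median UMIs per member were 11633, 12502.5 and 23984.5 in control and 9018, 15383.5 and 10302 in IE-HuR-/-. Among the 8528 barcodes with 2 or more tip genes, called tip-zone enterocytes below, the medians were 21862, 16996, 26251, 20472, 24964.5 and 23721, each above that of the members of the same library. The largest member barcode made up 9.65%, 20.2% and 10.9% of its control sum and 42.3%, 25.7% and 25.2% of its IE-HuR-/- sum. No member barcode sequence was shared between libraries, while 22 to 44 of all barcodes were shared by a pair of libraries.

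Whether a barcode lacks tip genes depends on its depth. It may also depend on the label, through the level of the tip genes, which is given below. Members made up 1.35%, 0.588% and 1.74% of all enterocyte barcodes in control and 0.561%, 0.489% and 0.729% in IE-HuR-/- libraries 1 to 3. After each of the 8472 enterocyte barcodes that remained eligible was thinned to 5000 UMIs, 1243 had no tip UMI, with shares of 17.8% ± 4.77 (SD, n = 3) in control and 11.5% ± 1.27 in IE-HuR-/-. These shares follow from the rule and were not tested. Just outside it lay 189 control and 61 IE-HuR-/- barcodes that had exactly 1 tip UMI and otherwise met the rule. A further 23 control and 6 IE-HuR-/- barcodes missed it with 3 of the 6 markers, whereas 10 and 4 members had exactly 4. Within 1000 UMIs below the depth limit 10 control and 2 IE-HuR-/- barcodes were left out, and within 1000 UMIs above it lay 3 and 1 members.

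The enterocyte genes of the members were fixed by the rule, and the members were not uniform. All 6 enterocyte markers were detected in 53 members, and 81 had a UMI of Apoa4, an apolipoprotein packaged into chylomicrons. The 6 markers summed to 6667, 7363 and 7507 CPM (UMIs per 1000000 of the library's member sum, unscaled) in control and 4907, 7087 and 5848 CPM in IE-HuR-/-. A group of 20 members had under 3% mt- UMIs, 12 in control and 8 in IE-HuR-/- libraries. Their median was 8410.5 UMIs, 550 CPM of Epcam and 23176 CPM of Fabp1, the liver-type fatty acid-binding protein. The other 63 members had medians of 17551 UMIs, 1668 CPM of Epcam and 4129 CPM of Fabp1. All 6 markers were present in 52 of these 63 and in 1 of the 20. In IE-HuR-/- library 1, 4 of the 7 members were under 3% mt-, and the median mt- share of its members was 1.43%. That median was between 10.9% and 16.5% in the other 5 libraries. Gut regions were mixed as well: 15 members, 11 control and 4 IE-HuR-/-, had 3 or more UMIs of the ileal genes Fabp6 and Slc10a2, and Gata4, a factor of the proximal intestine, was detected in 46.

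**Figure D1:**
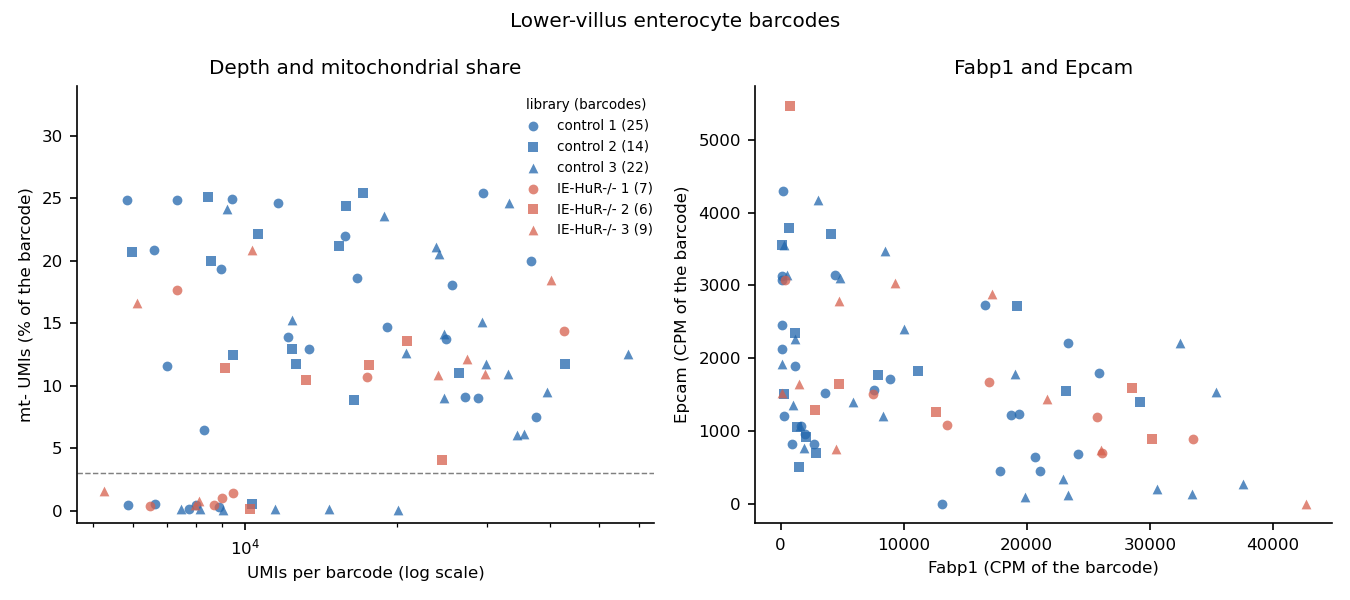
Each point is 1 of the 83 member barcodes, coloured by label and shaped by library. The left panel plots UMIs per barcode on a log axis against the mt- share in percent, with a dashed line at 3%, and the right panel plots Fabp1 against Epcam in CPM of the barcode. The 20 barcodes under 3% mt- lie apart from the other 63 on the mt- axis and overlap them in Epcam and Fabp1, and both labels are found in both groups.

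The position along the villus that the rule implies could be read from genes it did not use, as a description, because the rule sets the zones. The tip genes of the rule summed to 7204, 6503 and 8181 unscaled CPM in control tip-zone enterocytes and 9981, 10328 and 9657 CPM in IE-HuR-/- ones. In barcodes with 1 tip gene the labels overlapped, at 125, 303 and 127 CPM against 155, 171 and 298 CPM. The absence of tip UMIs could thus be a stricter cut in IE-HuR-/- libraries, and its part in the label differences was not tested. Of the villus tip genes outside the rule, 15 in all, the summed level was 21065, 27832 and 23704 unscaled CPM in control members against 44267, 42283 and 44016 CPM in tip-zone enterocytes of the same libraries. In IE-HuR-/- members it was 13089, 16081 and 9705 CPM, against 40918, 42830 and 40649 CPM. The tip gene sum was lower in the members in all 6 libraries. It rested largely on Malat1 and Apoa4. In control members these had means of 11689 and 8880 CPM, of a mean sum of 24200 CPM. In IE-HuR-/- members they had means of 6094 and 3322 CPM, of a mean sum of 12958.5 CPM. The 15 villus base genes summed to 19060, 16502 and 11287 CPM in control members and 11383, 12194 and 11422 CPM in control tip-zone enterocytes, so that control library 3 showed no excess. In IE-HuR-/- libraries they summed to 68610, 47206 and 51316 CPM in members and 25342, 25332 and 24502 CPM in the tip zone. Most of the IE-HuR-/- member mean of 55711 CPM came from Reg3b and Reg3g, at 31446.5 and 8661 CPM. These 2 lectins, which differ by label, stood at 3023 and 1225 CPM in control members. Gsdmc2, Gsdmc3 and Gsdmc4 were at 0 in all members.

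The 12 stem and cycling cell markers summed to 100.1, 66.0 and 176 unscaled CPM in control members and 79.1, 115 and 132 CPM in IE-HuR-/- members, mostly from the Wnt target Axin2 and the replication clamp Pcna. Lgr5, Ascl2, Olfm4 and Smoc2, which mark stem cells, were at 0 in all 6 libraries. Goblet cell markers summed to 395, 448 and 284 unscaled CPM in control and 346, 325 and 352 CPM in IE-HuR-/-. Markers of T and NK cells summed to 38.5, 51.8 and 24.9 CPM in control and 39.6, 62.9 and 69.1 CPM in IE-HuR-/-, led by the granzyme gene Gzma. B and plasma cell markers summed to 2.57, 4.71 and 0 CPM in control and 59.4, 41.9 and 44.0 CPM in IE-HuR-/-, all 3 above control. At least 1 UMI of an immune marker was found in 21 control and 15 IE-HuR-/- members.

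Elavl1 itself was given by 14, 7 and 15 UMIs in control members and by 2, 2 and 2 UMIs in members labelled IE-HuR-/-. These counts were 35.9, 33.0 and 28.8 unscaled CPM against 19.8, 21.0 and 12.6 CPM. The ratio of IE-HuR-/- to control was 0.526 with an exact 95% interval of 0.181 to 1.26, which covers counting error only, as do the other intervals on UMIs below. Elavl1 had too few UMIs to enter the test across genes. In tip-zone enterocytes it stood at 29.0, 30.2 and 27.0 CPM in control and 29.1, 29.1 and 29.2 CPM in IE-HuR-/-. Which exons were removed is not given in the sources used here, so this RNA does not check the labels, and the groups are called by their labels.

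The main comparison asked which transcripts of lower-villus enterocytes differed between the labels. Higher under the label IE-HuR-/- were 2 antimicrobial lectins, a serum amyloid A, a metallothionein, 4 MHC class II genes and 7 ribosomal protein genes. Lower were 7 cytochrome P450 enzymes, 2 esterases and 2 genes of lipid handling. UMIs were summed per library over its members, and the sums entered the quasi-likelihood test of edgeR. The p-values were adjusted by the Benjamini-Hochberg method over the 2512 genes that had enough counts. Differentially abundant genes, called at an adjusted p under 0.05, numbered 61, or 2.43% of the genes tested. Of these, 32 (1.27%) were higher and 29 (1.15%) lower in IE-HuR-/-. The 61 include Lct, a gene of the rule, which is given below without a test. All 61 had non-overlapping groups, as did 618 (24.6%) of the genes tested. The median log2 fold change over all genes tested was -0.01, and 494 genes had an unadjusted p under 0.05. The number of calls was sensitive to the members included: 1 call, Mt1, remained among members without an immune marker UMI (18, 7 and 15 control and 2, 2 and 3 IE-HuR-/- barcodes). Leaving out control library 1, 2 or 3 left 25, 26 or 27 calls, and 93 were made without IE-HuR-/- library 2 or 3.

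**Figure D2:**
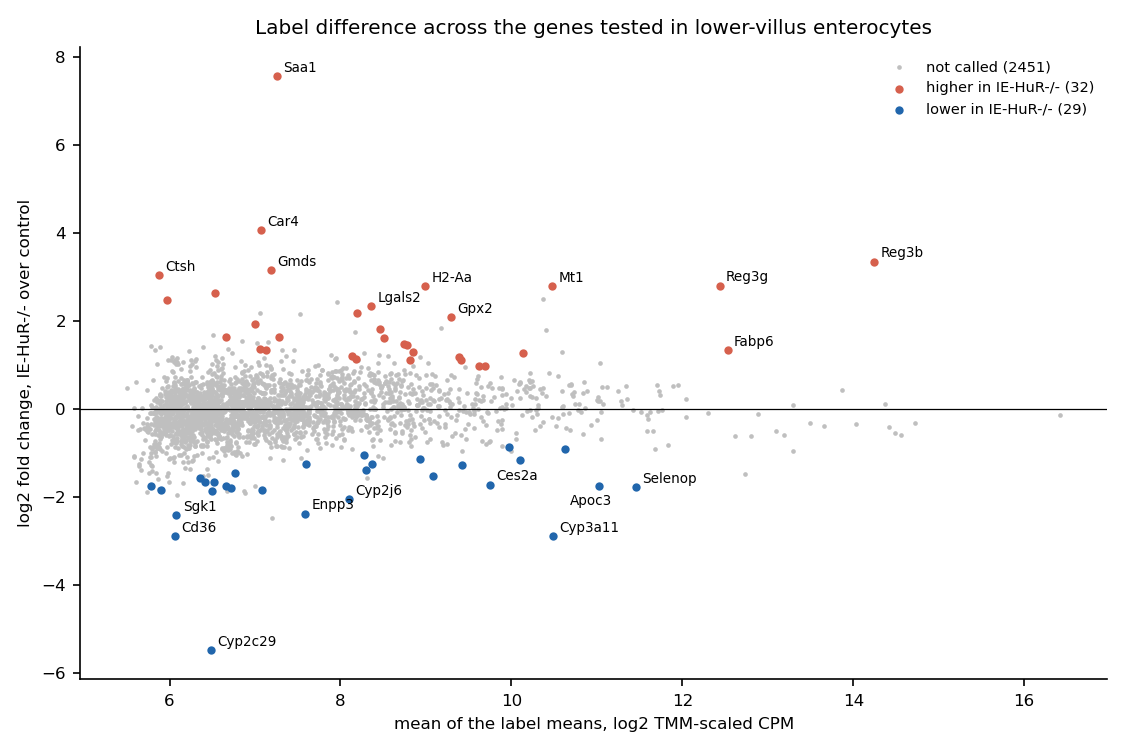
Each point is 1 of the 2512 genes tested in lower-villus enterocytes, with the log2 of its mean TMM-scaled CPM on the x axis and its log2 fold change of IE-HuR-/- over control on the y axis. The 32 genes called higher are red, the 29 called lower are blue and the 2451 not called are grey; Reg3b combines a high level with a rise of 3.35.

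Genes of epithelial defence were among the largest rises. Reg3b, a secreted C-type lectin that damages bacteria, stood at 4670, 4148 and 1556 CPM (here and for single genes below, TMM-scaled) in control members and at 43871, 27303 and 34755 CPM in IE-HuR-/- members. The lowest IE-HuR-/- library was thus several times the highest control. The log2 fold change was 3.35 ± 0.39 (SE; edgeR adjusted p = 0.000272). Reg3b was called in 17 of 20 alternatives, and not with all 6 markers (edgeR adjusted p = 0.063), without the top 10% by UMIs (0.0676) or among members without an immune marker UMI (0.441). Reg3g, its paralogue with the same role, stood at 1557, 1628 and 994 CPM in control and 12725, 7556 and 8851 CPM in IE-HuR-/-, for which the log2 fold change was 2.80 ± 0.28 (edgeR adjusted p = 3.29e-05). It too was called in 17 of 20 alternatives, and not at 15% mt- UMIs or less (edgeR adjusted p = 0.0633), without the top 10% by UMIs (0.144) or without an immune marker UMI (0.366). Every IE-HuR-/- library was above every control library for both lectins. Reg3b and Reg3g are paralogues on the same chromosome, and how the authors' counting treated reads that match both was not examined.

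Per barcode, the median of Reg3b was 651 CPM over the 61 control members and 11662 CPM over the 22 IE-HuR-/- members. The level also varied with the kind of member. Among members with 3% or more mt- UMIs the medians were 633 CPM in control and 30515 CPM in IE-HuR-/-, and among those under 3% they were 818 and 5437 CPM. The IE-HuR-/- medians were higher in both kinds of member.

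The promoters of Reg3b and Reg3g are shown because the 2 genes rose together and share a stretch of sequence at their start. Both are printed 5′ to 3′ in the sense of the gene, from 150 bases before the annotated start to 50 after it, from RefSeq on GRCm38.p6, with the longest shared run of 29 bases in capitals. Reg3b lies on the plus strand at chr6:78370735-78370934 and Reg3g on the minus strand at chr6:78468825-78469024.
Reg3b: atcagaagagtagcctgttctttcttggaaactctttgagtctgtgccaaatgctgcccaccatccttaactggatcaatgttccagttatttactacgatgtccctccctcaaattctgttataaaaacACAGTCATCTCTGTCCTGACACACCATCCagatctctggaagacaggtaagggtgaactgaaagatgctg
Reg3g: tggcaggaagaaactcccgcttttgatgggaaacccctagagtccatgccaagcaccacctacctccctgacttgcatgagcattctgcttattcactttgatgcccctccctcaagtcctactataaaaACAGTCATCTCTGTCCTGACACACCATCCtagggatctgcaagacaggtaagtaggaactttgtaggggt
The run was found in 2 of 32851 promoters, or 0.00609%, these 2 genes alone. Just before it in each lies TATAAAA, letters found on either strand in 3.46% of promoters.

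Saa1, an acute-phase apolipoprotein made by epithelium in contact with microbes, was nearly confined to IE-HuR-/- libraries. It gave 0, 0 and 1 UMI in control and 40, 21 and 32 UMIs in IE-HuR-/-, a ratio of 294 with an exact 95% interval of 51.4 to 11725, and its edgeR adjusted p was 2.29e-06. All 93 UMIs came from 4 of the 22 IE-HuR-/- members, and these were the 4 with 3 or more ileal UMIs. Control libraries held 11 members with that many ileal UMIs, and none of them had Saa1. Of 16 genes in the antimicrobial list that the files hold, 7 were tested, 3 (Reg3b, Reg3g and Saa1) were called higher and none lower, against 1.27% of all genes called higher, and the list had a median log2 fold change of 1.79. Reg1, another lectin of the family, had a log2 fold change of -0.03 and was not called.

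Car4, a membrane-bound carbonic anhydrase, stood at 8.98, 32.2 and 10.4 CPM in control and 364, 189 and 201 CPM in IE-HuR-/- members. The groups lay far apart, and the log2 fold change was 4.06 ± 0.43 (edgeR adjusted p = 6.14e-05). Gmds, the enzyme that starts GDP-fucose synthesis, stood at 18.0, 53.7 and 25.1 CPM in control and 408, 111 and 261 CPM in IE-HuR-/-, with a log2 fold change of 3.16 ± 0.46. Lgals2, a galectin that binds galactosides, rose by 2.33 ± 0.33 on the log2 scale, from 114, 80.6 and 119 CPM to 872, 401 and 380 CPM. Ctsh, a lysosomal cysteine protease, rose by 3.04 ± 0.62, from 21.0, 0 and 10.4 CPM to 177, 78.0 and 67.0 CPM. Car4, Gmds and Lgals2 were called with any 1 library left out, whereas Ctsh was not called without control library 2 (edgeR adjusted p = 0.0525), control library 3 (0.124) or IE-HuR-/- library 1 (0.15).

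Of the epithelial cytokine and peroxidase genes, Il18, which encodes an inflammasome cytokine, stood at 186, 188 and 165 CPM in control and 596, 323 and 283 CPM in IE-HuR-/-. Its log2 fold change was 1.14 ± 0.28 and its edgeR adjusted p 0.0438, which rose to between 0.0936 and 0.239 without any of the 3 control libraries or IE-HuR-/- library 1. Pycard, the inflammasome adaptor, stood at 71.9, 64.5 and 31.3 CPM in control and 188, 189 and 223 CPM in IE-HuR-/-. Pycard was named after its values were seen, and inflammasome genes were not tested as a list. Nlrp6, another inflammasome gene, had a log2 fold change of -0.28 and was not called (edgeR adjusted p = 0.652). Gpx2, the glutathione peroxidase of the gut epithelium, stood at 228, 156 and 319 CPM against 1037, 624 and 1407 CPM, with a log2 fold change of 2.10 ± 0.31. Without IE-HuR-/- library 1 its edgeR adjusted p was 0.0513. Among 13 tested redox genes of the Nrf2 type Gpx2 was the single call, against 1.27% of all genes called higher, and Prdx1, the most abundant of them, had a log2 fold change of 0.41 with an adjusted p of 0.27.

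**Figure D3:**
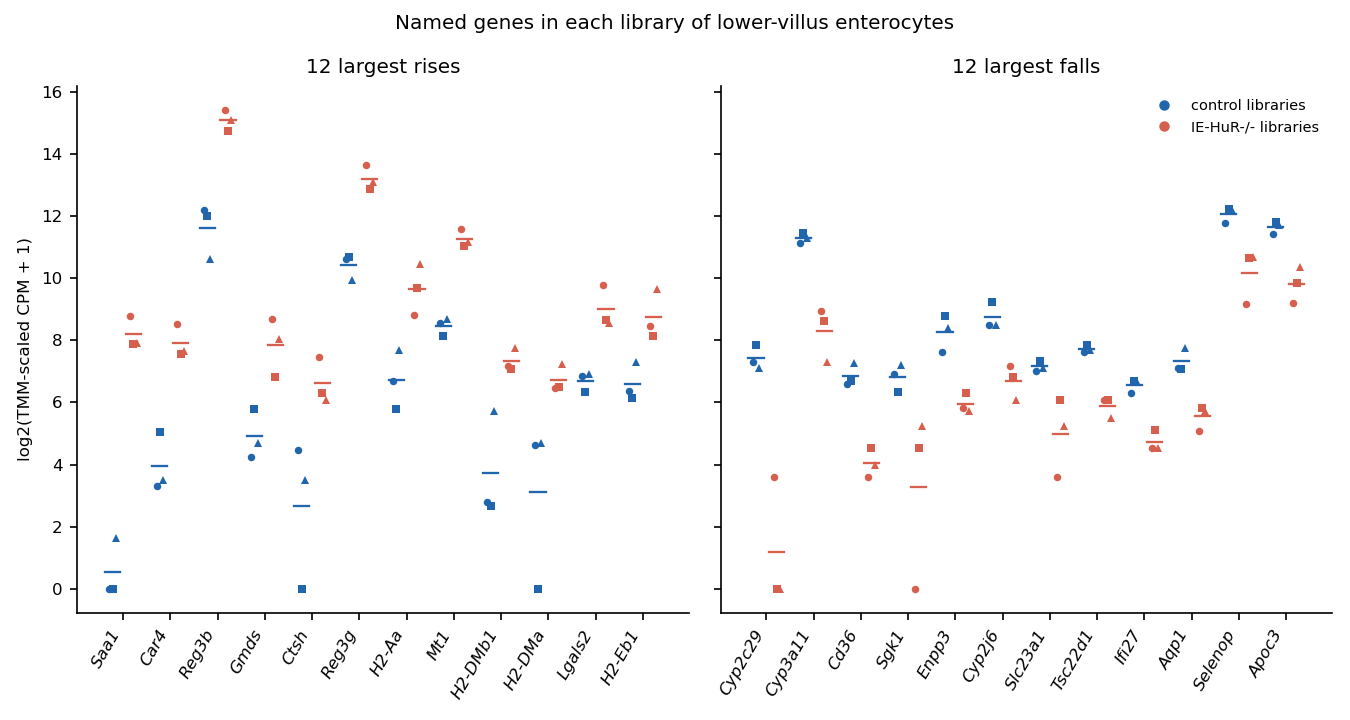
Values of the 12 genes with the largest rise and the 12 with the largest fall in each library of lower-villus enterocytes, on a log2(TMM-scaled CPM + 1) axis. Points are libraries (circle, square and triangle for replicates 1, 2 and 3) and short lines are the means of 3 libraries on this axis; in each of the 24 genes the points of the 2 labels do not overlap.

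Mt1, a metallothionein that binds zinc and copper, stood at 374, 279 and 413 CPM in control members and 3046, 2106 and 2315 CPM in IE-HuR-/- members. The 3 IE-HuR-/- libraries lay far above control, and the log2 fold change was 2.79 ± 0.23 (edgeR adjusted p = 4.85e-06). Mt1 was called under each of the 20 alternatives tried for it, with log2 fold changes between 2.32 and 3.57. Mt2, its paralogue, had 2, 4 and 9 UMIs in control and 6, 3 and 2 UMIs in IE-HuR-/- members and was not tested, with a ratio of 2.32 and an exact 95% interval of 0.962 to 5.4. Of the 6 tested metallothionein and zinc genes Mt1 was the single call, against 1.27% of all genes called higher, and the list median was 0.44. Mtf1, the zinc-sensing factor that drives metallothioneins, had a log2 fold change of 0.53 and the zinc importer Slc39a4 one of -0.50, neither called.

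The Mt1 promoter is shown with its matches to TGCNCNC, the core of the metal response element, in capitals. It lies on the plus strand at chr8:94178939-94179138 (RefSeq, GRCm38.p6), from 150 bases before the start to 50 after it.
Mt1: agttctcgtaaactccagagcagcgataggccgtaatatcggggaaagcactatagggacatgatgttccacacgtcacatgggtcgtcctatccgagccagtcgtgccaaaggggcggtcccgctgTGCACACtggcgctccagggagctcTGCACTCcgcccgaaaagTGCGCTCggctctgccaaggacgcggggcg
Either strand was searched, and 3 matches were found. At least 1 match was held by 40.0% of the 32851 promoters. Mt2 held 4 matches, a number reached by 0.913% of promoters.

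MHC class II is the complex that presents peptides to CD4 T cells, and 4 of its genes were higher in IE-HuR-/- members. H2-Aa, the class II alpha chain, stood at 102, 53.7 and 207 CPM in control and 453, 825 and 1407 CPM in IE-HuR-/-, and the log2 fold change was 2.80 ± 0.51 (edgeR adjusted p = 0.026). H2-Eb1, a beta chain, stood at 80.8, 69.9 and 157 CPM against 353, 279 and 811 CPM, with a log2 fold change of 2.19 ± 0.43. The groups did not overlap for either chain, although the IE-HuR-/- libraries differed among themselves. The peptide-loading genes H2-DMa and H2-DMb1 rose by 2.49 ± 0.51 and 2.63 ± 0.58 on the log2 scale. H2-DMb1 was at 5.99, 5.37 and 52.2 CPM in control and 143, 134 and 216 CPM in IE-HuR-/-.

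Of 7 tested class II genes, 4 were called higher and none lower, against 1.27% of all genes called higher, and the median log2 fold change was 2.49. Cd74, the invariant chain and most abundant of them, had a log2 fold change of 2.51 and an edgeR adjusted p of 0.0673, and was not called. The calls depended on single libraries. H2-Aa lost its call without control library 1 or IE-HuR-/- library 1 or 2 (highest edgeR adjusted p 0.11), and H2-Eb1 without control library 1 or 2 or IE-HuR-/- library 1 (highest 0.131). H2-DMa lost it without control library 1 or 3 or IE-HuR-/- library 3 (highest 0.11), and H2-DMb1 without any library other than control 3 (highest 0.103). With the 63 members at 3% mt- or more 1 of 7 was called (1.11% of all genes called higher), and among members with under 3 ileal UMIs 1 of 6 was (4.1% of all genes). None was called at 10000 UMIs or more, at no more than 15% mt- UMIs, or among members without an immune marker UMI, where 4 were tested. Other settings gave more: 6 of 7 with DESeq2, 6 of 7 with the replicate number as a block and 5 of 7 without control library 3. Without the top 10% by UMIs 5 of 6 were called, and 7 of 8 when barcodes were thinned to 5000 UMIs. Genes of any kind called higher in these settings numbered, in order, 43, 79, 16, 8 and 480.

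B and plasma cell markers, which sit in cells that use class II, moved with this result. Their UMIs numbered 2 in control and 17 in IE-HuR-/- members, and the leading gene Igkc had 0 UMIs in control and 5, 3 and 2 UMIs in IE-HuR-/- libraries. Ms4a1, Ighd and Iglc2 were at 0 in all 6. Myeloid markers summed to 53.9, 56.5 and 76.7 unscaled CPM in control and 39.6, 21.0 and 44.0 CPM in IE-HuR-/-. Nearly all of this was Cst3, a cystatin that many cell types express, with 21, 10 and 39 UMIs in control and 3, 2 and 7 UMIs in IE-HuR-/-, and Csf1r, C1qb, C1qc, Itgax and Aif1 were at 0. The class II list summed to 701, 636 and 1603 unscaled CPM in control and 2919, 3963 and 6370 CPM in IE-HuR-/- members. Igkc also differed outside the members. Its unscaled means for control and IE-HuR-/- were 0.752 and 7.69 CPM with 1 tip gene and 0.727 and 7.88 CPM in the tip zone. The part of immune cell RNA in the class II difference was not tested.

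The class II promoters are shown for the genes that rose together. H2-Eb1 (chr17:34305717-34305916) and H2-DMb1 (chr17:34153041-34153240), both on the plus strand of GRCm38.p6 (RefSeq), have their longest shared run of 13 bases in capitals. H2-Aa (chr17:34287774-34287973, minus strand) has in capitals its match to TGATTGG, the Y box of class II promoters.
H2-Eb1: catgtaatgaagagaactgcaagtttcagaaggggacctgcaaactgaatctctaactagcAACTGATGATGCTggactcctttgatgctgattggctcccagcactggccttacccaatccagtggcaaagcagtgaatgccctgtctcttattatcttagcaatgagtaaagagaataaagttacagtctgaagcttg
H2-DMb1: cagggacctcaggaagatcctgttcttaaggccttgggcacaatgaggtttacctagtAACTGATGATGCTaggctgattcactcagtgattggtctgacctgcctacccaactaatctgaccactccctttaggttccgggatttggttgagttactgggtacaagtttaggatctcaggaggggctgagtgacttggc
H2-Aa: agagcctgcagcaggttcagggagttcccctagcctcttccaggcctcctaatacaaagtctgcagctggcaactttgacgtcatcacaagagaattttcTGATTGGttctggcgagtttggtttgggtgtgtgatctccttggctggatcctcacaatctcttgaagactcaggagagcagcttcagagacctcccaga
The shared run was held by 3 promoters (0.00913%), the third being that of Slc39a10, a zinc transporter gene. On either strand TGATTGG was held by each of these class II promoters and by 6.32% of all promoters.

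No gene of the class I and interferon lists passed the test over all 83 members. Among members with under 3 ileal UMIs, 4 of 11 class I genes and 1 of 5 type I/III interferon genes were called lower, against 3.8% of all genes. None of 11 tested MHC class I presentation genes was called, with a median log2 fold change of -0.29, and B2m, the shared light chain, had a log2 fold change of -0.51. Type I/III interferon genes had 8 tested members, none called, all with a negative log2 fold change and a median of -1.42. Their summed level was 993, 697 and 2096 unscaled CPM in control and 148, 1069 and 320 CPM in IE-HuR-/-, so that the groups overlapped. Ifit1, the most abundant of these, had a log2 fold change of -2.49 and an edgeR adjusted p of 0.29.

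Of 15 tested P450 genes, whose enzymes oxidise drugs and other foreign compounds, 7 were called lower in IE-HuR-/- members, against 1.15% of all genes. Cyp3a11, the main drug-oxidising P450 of the mouse gut, stood at 2248, 2800 and 2497 CPM in control members and 497, 390 and 156 CPM in IE-HuR-/- members. Every control library was several times above every IE-HuR-/- library, and the log2 fold change was -2.89 ± 0.32 (edgeR adjusted p = 0.000206). Cyp2c29 gave 53, 43 and 65 UMIs in control and 1, 0 and 0 in IE-HuR-/-, a ratio of control to IE-HuR-/- of 51.0 with an exact 95% interval of 9.02 to 2026 (edgeR adjusted p = 0.000307). Cyp2j6, an epoxygenase of arachidonic acid, stood at 362, 596 and 361 CPM against 143, 111 and 67.0 CPM, and its log2 fold change was -2.06 ± 0.33.

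Of the 21 P450 genes listed, 15 were tested, 7 were called lower and none higher, against 1.15% of all genes tested. The log2 fold change was negative in all 15, with a median of -0.88. Without control library 1, 2 or 3 the P450 calls numbered 4, 3 and 4, and none was called among members without an immune marker UMI. Cyp2b10 stood at 736, 940 and 727 CPM in control and 419, 212 and 216 CPM in IE-HuR-/-, and Cyp3a25, Cyp2c55 and Cyp2d26 fell by 1.26, 1.25 and 1.14 on the log2 scale. Cyp3a11, Cyp2c29 and Cyp2j6 were called with any 1 library left out, and Cyp2b10 was not without control library 2 (edgeR adjusted p = 0.057). Cyp3a25 lost its call without any 1 control library (at most 0.0914), and Cyp2c55 and Cyp2d26 did so without any 1 control library or IE-HuR-/- library 2 (at most 0.125 and 0.144). Cyp2c65, a close relative of Cyp2c29, had a log2 fold change of -0.03. The nuclear receptors Nr1i2 and Nr1i3, which induce these enzymes, had log2 fold changes of -0.44 and -0.54 and were not called.

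Among 15 tested conjugation enzymes and esterases, 2 were called lower and none higher, against 1.15% of all genes called lower, and the list median was -0.02. Ces2a, a carboxylesterase that cleaves drug esters, stood at 1266, 1424 and 1282 CPM in control and 475, 401 and 335 CPM in IE-HuR-/- (log2 fold change -1.72 ± 0.21, edgeR adjusted p = 0.000278). Ces2a was called with any 1 library left out. Bche, butyrylcholinesterase, stood at 153, 172 and 140 CPM against 33.1, 89.2 and 22.3 CPM. Its adjusted p of 0.026 exceeded 0.05, reaching at most 0.104, without any 1 library other than IE-HuR-/- library 2. Gsta1, the most abundant of these enzymes, had a log2 fold change of 1.05 and was not called.

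**Figure D4:**
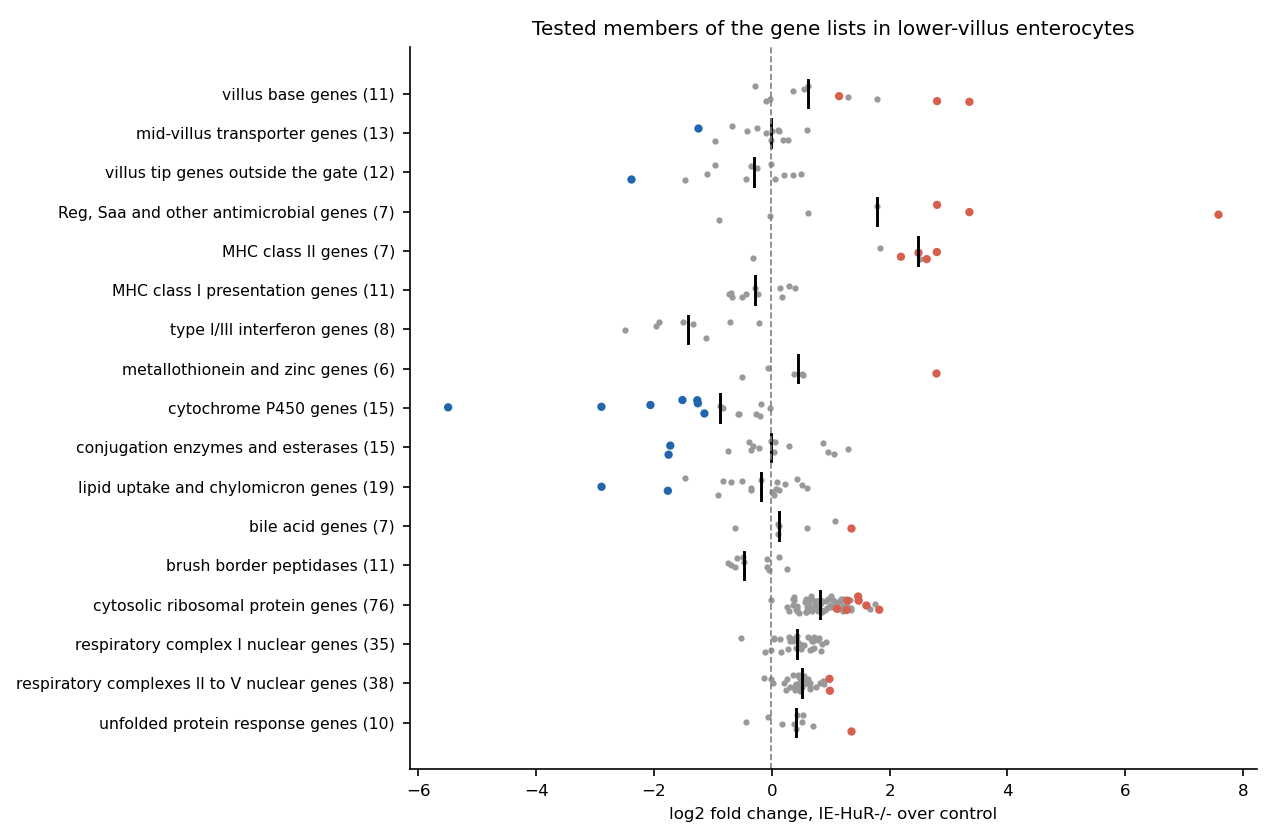
Log2 fold change of IE-HuR-/- over control for the tested members of 17 gene lists in lower-villus enterocytes, with the number tested in parentheses. Grey points were not called, red points were called higher and blue points lower; black bars are list medians and the dashed line is the median of all genes tested, -0.01. Of 7 class II genes 6 are positive, all 15 P450 genes are negative, and most ribosomal protein genes lie to the right of the dashed line without being called.

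Lipid genes were lower for single members of the pathway. Apoc3, an apolipoprotein of chylomicrons, stood at 2736, 3595 and 3360 CPM in control and 585, 925 and 1318 CPM in IE-HuR-/-, and the log2 fold change was -1.76 ± 0.26 (edgeR adjusted p = 0.00182). Cd36, a fatty acid receptor of the brush border, stood at 95.8, 102 and 155 CPM against 11.04, 22.3 and 14.9 CPM, with a log2 fold change of -2.89 ± 0.50. Both falls were called with any 1 library left out. They were the 2 calls among 19 tested lipid uptake and chylomicron genes, against 1.15% of all genes called lower, and the list median was -0.18. Among members with under 3 ileal UMIs 5 of 18 were called lower, against 3.8% of all genes. Apoa4 stood at 7105, 12456 and 10485 CPM in control and 3035, 6374 and 1481 CPM in IE-HuR-/- (log2 fold change -1.47, edgeR adjusted p = 0.145), Apob, which forms the chylomicron, had a log2 fold change of -0.90 (adjusted p = 0.064), and Fabp2, the most abundant member, one of 0.12.

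Further falls among the 12 largest included transport, selenium and signalling genes. Selenop, the selenium transport protein, stood at 3554, 4793 and 4746 CPM in control and 574, 1594 and 1638 CPM in IE-HuR-/-, a log2 fold change of -1.78 ± 0.33. IE-HuR-/- library 1 was the lowest, and without control library 2 the edgeR adjusted p was 0.0627. Slc23a1, a vitamin C transporter, stood at 129, 161 and 138 CPM against 11.04, 66.9 and 37.2 CPM. Its call was lost without any 1 control library or IE-HuR-/- library 3, with an adjusted p of at most 0.0843. Sgk1, a kinase induced by glucocorticoids that raises sodium uptake, stood at 120, 80.6 and 146 CPM against 0, 22.3 and 37.2 CPM, and was not called without control library 1 (0.088) or 3 (0.137). Tsc22d1, a leucine zipper regulator, fell by 1.85 ± 0.31 on the log2 scale and held with any 1 library left out. The interferon-inducible gene Ifi27 and the water channel Aqp1 fell by 1.85 and 1.81. Aqp1 was not called without control library 3 (0.0843), nor Ifi27 without any 1 library other than IE-HuR-/- library 2 (at most 0.151).

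Disaccharidase, sugar transporter, peptidase, and peptide and amino acid transporter lists had 1 call outside the rule. None of 8 tested disaccharidase and sugar transporter genes was called, with a median of 0.12. Sis, sucrase-isomaltase, stood at 2792, 2883 and 2338 unscaled CPM in control and 4215, 2841 and 3084 CPM in IE-HuR-/-, so that the groups overlapped. None of 11 tested brush border peptidases was called (2 of 10 were lower among members with under 3 ileal UMIs, against 3.8% of all genes), with a median of -0.47, and Anpep, aminopeptidase N, had a log2 fold change of -0.07. Of 12 tested peptide and amino acid transporters, Slc6a20a, which carries proline, was called lower (against 1.15% of all genes called lower), at 266, 279 and 282 CPM in control and 143, 44.6 and 149 CPM in IE-HuR-/- (log2 fold change -1.25). Slc6a20a lost its call without any 1 control library or IE-HuR-/- library 2, with an edgeR adjusted p of at most 0.15. The peptide transporter Slc15a1 had a log2 fold change of -0.96 and was not called. Lct, lactase, is among the 61 calls and lower in IE-HuR-/-, but it is a gene of the rule and is given as a description, at 1473, 1499 and 1572 CPM in control and 486, 825 and 715 CPM in IE-HuR-/- members.

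Bile acid genes were led by Fabp6, the ileal bile acid-binding protein, at 2012, 5465 and 2598 CPM in control and 9293, 7333 and 8836 CPM in IE-HuR-/- members. Its log2 fold change was 1.34 ± 0.32 (edgeR adjusted p = 0.0438), it was called in 6 of 18 alternatives, and leaving out any 1 library apart from control 2 raised the adjusted p to as much as 0.231. Fabp6 was the single call among 7 tested bile acid genes, against 1.27% of all genes called higher. The list median was 0.12, and Slc10a2, the ileal uptake transporter, had a log2 fold change of 1.08 and was not called. A single member held nearly all ileal UMIs of each IE-HuR-/- library, with 852, 678 and 1218 of them in libraries 1 to 3. The largest number in a control member was 343, 1007 and 1197. The Fabp6 values of a library thus rest on few barcodes. Ileal members made up 6, 3 and 2 of the control members and 1, 1 and 2 of the IE-HuR-/- members. The part of the regional mix in these values was not tested.

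Of 76 tested ribosomal protein genes, 7 were called higher and none lower, against 1.27% of all genes called higher. The log2 fold change was positive in 75 of them, with a median of 0.82. Rps29 stood at 722, 629 and 626 CPM in control and 2561, 1170 and 1064 CPM in IE-HuR-/- members, and Rpl28 at 512, 414 and 370 CPM against 1015, 791 and 975 CPM. Their log2 fold changes were 1.27 ± 0.29 and 1.1 ± 0.21. IE-HuR-/- library 1 was the highest for both, and for the whole list, which summed to 18293, 15748 and 15804 unscaled CPM in control and 47300, 22235 and 21742 CPM in IE-HuR-/-. Without that library 8 of 76 were called higher, against 1.35% of all genes, and among members with under 3 ileal UMIs 35 of 74 were, against 4.1%. Without IE-HuR-/- library 2 the number was 19 of 77, against 54 of 3028 genes, and without IE-HuR-/- library 3 it was 15 of 76, against 58 of 3091. None was called without control library 2 or 3 and 2 of 77 without control library 1. None was called without the top 10% by UMIs, among members without an immune marker UMI or with limma on the mean CPM per barcode. The low median mt- share and the low number of members with all 6 markers (2 of 7) in IE-HuR-/- library 1 moved with this result, and their part in it was not tested. Ribosomal protein genes also have many near-identical pseudogene copies, which makes single members uncertain.

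Nuclear genes of the respiratory chain had 2 calls over all 83 members. None of 35 tested complex I genes was called, with 32 positive and a median log2 fold change of 0.42. Of 38 tested genes of complexes II to V, 2 were called higher, against 1.27% of all genes called higher, 36 were positive and the median was 0.52. Among members with under 3 ileal UMIs 4 of 35 and 6 of 38 were called higher, against 4.1% of all genes. Of the 38 genes of complexes II to V, 29 were called higher when barcodes were thinned to 5000 UMIs, against 480 of 6468 genes. With the replicate number as a block 8 were, against 79 of 2512 genes, and at 10000 UMIs or more none was. In tip-zone enterocytes 36 of the 38 were called higher, against 27.1% of all genes there. Atp5g1, a ring subunit of ATP synthase, stood at 608, 543 and 507 CPM in control and 1501, 847 and 945 CPM in IE-HuR-/-, and Uqcr11, a complex III subunit, at 572, 527 and 495 CPM against 1324, 892 and 930 CPM. Both lost their call without any 1 of the 3 control libraries, with edgeR adjusted p-values of at most 0.222 and 0.163. Among 5 tested mitochondrial chaperone and prohibitin genes none was called, and Phb2, a prohibitin, had a log2 fold change of 1.06 with an adjusted p of 0.097. None of 23 proteasome genes was called. Manf, a factor released under endoplasmic reticulum stress, was the single call among 10 unfolded protein response genes, against 1.27% of all genes called higher, and stood at 92.8, 91.4 and 62.6 CPM in control and 155, 167 and 268 CPM in IE-HuR-/-. Its adjusted p was at most 0.2 without any 1 control library or IE-HuR-/- library 3, each of which ended the call.

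The second comparison asked whether the label difference of the members differed from that of tip-zone enterocytes in the same libraries. The regional mix of the tip zone differed by label. Barcodes with 3 or more ileal UMIs made up 13.5%, 14.0% and 13.2% of it in control and 30.5%, 31.0% and 32.3% in IE-HuR-/-. Among members they were 11 of 61 in control and 4 of 22 in IE-HuR-/-. A fit with at least 3% mt- and under 3 ileal UMIs in both zones is given below. The part of this mix in the label differences was not tested. Nor was that of the tip genes of the rule, whose summed unscaled level in the tip zone was higher in IE-HuR-/-. Of 11191 genes tested, 53 (0.474%) were called for the zone by label term. For 28 (0.25%) the label difference was more positive and for 25 (0.223%) more negative in the members. The 53 include mt-Nd4l, a gene of the mt- share that the rule limits, and its call is not read as a result. The median of this term over all genes was -0.23, and -0.04 without TMM scaling, when the calls split into 53 and 13. Of the 61 genes called in members, 17 were also called for this term. Reg3b had a label log2 fold change of 3.35 in members, 2.56 in barcodes with 1 tip gene and 2.56 in the tip zone, and Cyp3a11 of -2.89, -2.28 and -2.05. Those of Mt1 were 2.79, 3.03 and 3.68. None of these 3 genes was called for the term, with edgeR adjusted p-values of 0.11, 0.121 and 0.0582.

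Enpp3, an ectoenzyme that cleaves nucleotides, was the tip gene outside the rule that differed most clearly. On the scale of the zone fit it stood at 163, 357 and 288 CPM in control members and 42.1, 61.7 and 43.2 CPM in IE-HuR-/- members. In the tip zone it stood at 1249, 1106 and 1361 CPM in control and 1126, 1139 and 1091 CPM in IE-HuR-/-. The labels thus separated below the tip and overlapped at the tip on this scale. Unscaled, the tip-zone levels were 1208, 1068 and 1288 CPM in control and 972, 994 and 957 CPM in IE-HuR-/-, so that IE-HuR-/- was lower there as well. The zone by label term was -2.27 ± 0.36 (edgeR adjusted p = 2.51e-06). Of 12 tested tip genes outside the rule, Enpp3 was the single call for the label in members, against 1.15% of all genes called lower, with a median of -0.30 over the list. Of 11 tested villus base genes, 3 (Reg3b, Reg3g and Il18) were called higher and none lower, against 1.27% of all genes called higher, with a median of 0.61, and of 13 mid-villus transporter genes 1 (Slc6a20a) was called lower, against 1.15% of all genes called lower, with a median of -0.01.

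Susd2, a membrane protein with a sushi domain, had 18, 18 and 29 UMIs in control members and 0, 3 and 1 UMIs in IE-HuR-/- members. In the tip zone the order was opposite, at 101, 102 and 102 CPM in control and 174, 171 and 161 CPM in IE-HuR-/-, and the term was -3.17 ± 0.59. The uncharacterised gene 2210407C18Rik stood at 106, 79.4 and 17.8 CPM in control members and 219, 450 and 327 CPM in IE-HuR-/- members, against tip-zone means of 49.7 and 57.4 CPM, with a term of 2.23 ± 0.30. Enpp3, Susd2 and 2210407C18Rik were the 3 of 12 named genes called with any 1 library left out. The count itself fell to 10 without control library 3 and 15 without IE-HuR-/- library 1, and rose to 132 without IE-HuR-/- library 3. Among barcodes of 5000 to 15000 UMIs in both zones edgeR called none, with 369 genes at an unadjusted p under 0.05.

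**Figure D5:**
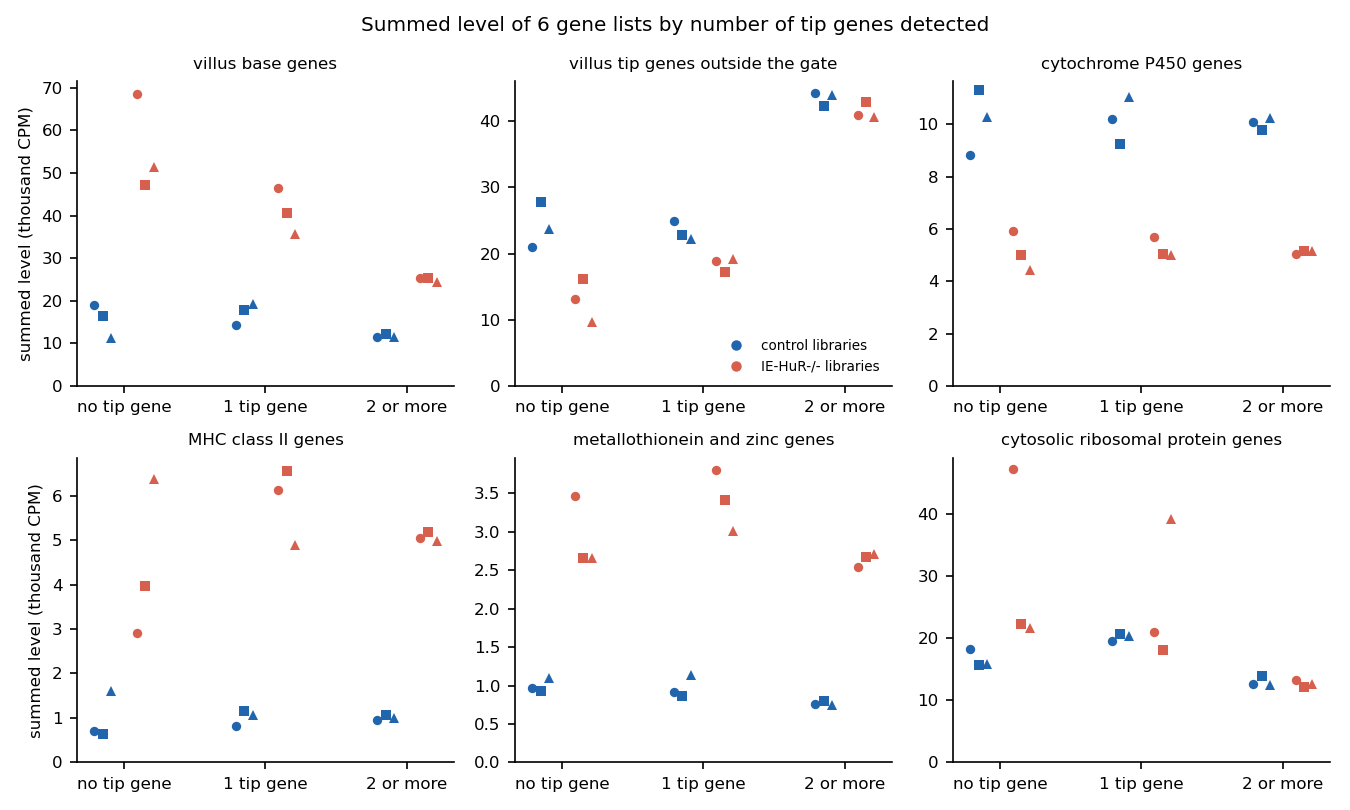
Summed level in units of 1000 unscaled CPM of 6 gene lists in each library, for lower-villus enterocytes (no tip gene), barcodes with 1 tip gene and barcodes with 2 or more. Points are libraries, blue for control and red for IE-HuR-/-, with circles, squares and triangles for replicates 1, 2 and 3. P450 sums lie lower and class II and metallothionein sums higher in IE-HuR-/- libraries in each zone, whereas ribosomal protein sums overlap in barcodes with 1 tip gene and in those with 2 or more.

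The sums of whole lists can be set beside those of the tip zone. P450 genes summed to 8823, 11287 and 10273 unscaled CPM in control members and 5936, 4990 and 4410 CPM in IE-HuR-/- members, against means of 10040 and 5117 CPM in the tip zone. Class II genes had tip-zone means of 1005 and 5062 CPM for control and IE-HuR-/-. In barcodes with 1 tip gene ribosomal protein genes summed to 19608, 20753 and 20328 CPM in control and 21060, 18067 and 39300.4 CPM in IE-HuR-/-, so that the groups overlapped. Ribosomal protein genes had tip-zone means of 12986 and 12658 CPM, although with TMM scaling 33 of 77 were called higher there, against 27.1% of all genes in that zone. Of the ribosomal protein genes 12 of 77 were called for the zone by label term, all more positive in the members, against 0.25% of all genes called in that direction. That count fell to 3 without control library 2, 1 without control library 3 and 0 without IE-HuR-/- library 1, and it was 0 without the top 10% by UMIs, at no more than 15% mt- and at 5000 to 15000 UMIs. It rose to 19 without IE-HuR-/- library 3, 23 without TMM scaling, 25 with all 6 markers and 29 with at least 3% mt- and under 3 ileal UMIs. Genes of any kind called in that direction then numbered 44, 53, 48 and 46.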

How the data were processed

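Small intestinal epithelial cells of 3 control littermate and 3 IE-HuR-/- mice had been profiled on the 10x Genomics platform. The deposited files hold whole UMI counts for each gene in each barcode, as the authors obtained them from the 10x pipeline and without normalization. The file header names cellranger 6.1.2, the labels mm10, Cell Ranger, Seurat and a 5′ kit, and the methods a 3′ kit, another CellRanger version and a human reference. Member barcodes were chosen by the stated counts, with no doublet caller; leaving out the top 10% by UMIs stands in for one. Counts were summed per library, filtered with filterByExpr (minimum count 10, minimum total 15), scaled by TMM and tested with the quasi-likelihood test of edgeR 4.0.16 (R 4.3.3). The zone fit had terms for library, zone and zone by label. The members and gene lists were chosen with earlier results of these data known. Named were Elavl1, then the 12 largest rises and falls among called genes outside the rule with non-overlapping libraries and a mean of at least 50 CPM under a label. Named next were 2 to 4 called members per list and the 6 largest zone by label differences in each direction, also with at least 50 CPM. Pairs of libraries of 1 label differed by 1.94 to 4.73 in chi-square per degree of freedom, so none was a copy. The labels do not state that same-numbered libraries are paired. On simulated data with 200 genes changed by a log2 fold of 2, the label test recovered 113 of 127 changed genes tested (89.0%), with 3 false calls among 2574 genes. Alternatives used DESeq2 1.42.0, limma 3.58.1 and Python 3.11.15, and 2 gates on the mt- share and ileal UMIs were added after the data had been seen. Promoters came from RefSeq for GRCm38.p6.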

Additional observations from a re-analysis of the deposited data

Results flagged for a closer look

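The label difference of lower-villus enterocytes differed from that of tip-zone enterocytes, by the zone by label term of edgeR, for the following 12 named genes of the 53 called. Levels are CPM on the scale of that fit, and terms are log2 values relative to a median over all genes of -0.23.

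More positive in the members were 6 genes. Ctsh had a term of 2.86, with means of 8.74 CPM in control and 84.1 CPM in IE-HuR-/- members against 15.5 and 16.9 CPM in the tip zone. 2210407C18Rik had a term of 2.23. Dmbt1, a mucosal scavenger receptor protein, had a term of 2.30, with 6 UMIs in control members and 35, 9 and 5 in IE-HuR-/- members. That term was 1.15 without IE-HuR-/- library 1 and 1.59 without control library 3, and was called in neither case. Sprr2a3, of a family of small proline-rich proteins, had a term of 2.48, with 5 UMIs in control members and 11, 0 and 16 in IE-HuR-/- members. Cotl1, an actin-binding protein, had a term of 3.82 with 2 against 19 member UMIs, a ratio of 30.01 with an exact 95% interval of 7.24 to 266. Defa30, a Paneth cell defensin, had a term of 8.68 but only 2 control and 2 IE-HuR-/- member UMIs. Both IE-HuR-/- UMIs were in library 2, and without it the term was 0.37 and not called. Its tip-zone level was 1.12, 480 and 1078 CPM in control and 2.83, 10.2 and 1.20 CPM in IE-HuR-/-. Paneth cell markers summed to 39, 1943 and 5308 unscaled CPM in those control libraries.

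More negative in the members were the other 6 genes. Npl, a sialic acid lyase, had a term of -3.55, with 53 control and 3 IE-HuR-/- member UMIs, a ratio of 0.179 with an exact 95% interval of 0.0357 to 0.552, and tip-zone means of 32.4 and 67.9 CPM. Susd2 had a term of -3.17. Ceacam18, a cell adhesion protein, had a term of -2.74, with 44 against 3 member UMIs (ratio 0.215, exact 95% interval 0.0428 to 0.672). Enpp3 had a term of -2.27. Gclc, the catalytic subunit for glutathione synthesis, had a term of -2.10, with means of 54.3 and 24.6 CPM in members and 51.6 and 101 CPM in the tip zone. Stag2, a cohesin subunit, had a term of -1.99, with means of 71.2 and 19.6 CPM in members and 73.7 and 82.0 CPM in the tip zone.

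Calls for the term depended on single libraries. Without control library 3 it was not called for Defa30, Cotl1, Sprr2a3, Dmbt1, Npl, Ceacam18, Gclc or Stag2, and without IE-HuR-/- library 1 not for Cotl1, Ctsh, Sprr2a3, Dmbt1, Gclc or Stag2. Cotl1, Sprr2a3 and Stag2 lost the call without control library 1, and Dmbt1, Ceacam18, Gclc and Stag2 without control library 2. Defa30, Dmbt1, Ceacam18 and Stag2 lost it without IE-HuR-/- library 2, and Sprr2a3, Ceacam18 and Gclc without IE-HuR-/- library 3.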

How the results depend on the processing

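The 61 calls for the label difference numbered 62 without TMM scaling, 70 with DESeq2 and 44 among members with at least 3% mt- UMIs. They numbered 153 without the filter on low counts, 903 when barcodes were thinned to 5000 UMIs, 132 among the 33 members with a Gata4 UMI and no ileal UMI and 162 among members with under 3 ileal UMIs. They numbered 40 with all 6 markers, 23 at no more than 15% mt- UMIs, 21 without the top 10% by UMIs, 19 at 10000 UMIs or more, 16 with limma on the mean CPM per barcode and 1 (Mt1) without members holding an immune marker UMI. With 1 library left out they ranged from 25 to 93, with 25, 26 and 27 without control library 1, 2 and 3 and 93 without IE-HuR-/- library 2 or 3. The share called higher, 52.5%, moved to 34.8% at no more than 15% mt-, 38.1% without the top 10% by UMIs, 63.2% at 10000 UMIs or more and 62.5% with limma. Over 44 named or listed genes, 571 values kept their call, 256 lost it and 0 reversed.

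With the replicate number as a block (replicate block), 141 genes were called, 79 higher and 62 lower, and the 44 genes kept their calls. Deviations of same-numbered libraries correlated at 0.152, -0.0441 and 0.140, so the numbers were not taken to pair the animals.

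The 53 calls for the zone by label term numbered 66 without TMM scaling (53 more positive and 13 more negative), 42 without the filter, 56 at 10000 UMIs or more and 62 against barcodes with 3 or more tip genes. They numbered 246 when thinned, 94 with all 6 markers, 108 with at least 3% mt- and under 3 ileal UMIs, 33 at no more than 15% mt-, 3 without the top 10% by UMIs and 0 at 5000 to 15000 UMIs, where 369 genes had an unadjusted p under 0.05. With 1 library left out they ranged from 10 (control 3) to 132 (IE-HuR-/- 3), with 34 without control library 2 and 15 without IE-HuR-/- library 1. Over the 12 named genes, 109 values kept their call, 76 lost it and 4 reversed: Defa30 to -8.76 with at least 3% mt- and under 3 ileal UMIs, and Dmbt1 to -1.63 when thinned, -0.91 without the top 10% by UMIs and -3.27 at 5000 to 15000 UMIs. The cause of these changes was not tested. Thinning also enlarged the membership to 1243 barcodes, and the other gates left fewer barcodes. A planned fit on members with 3 or more ileal UMIs and no Gata4 UMI was not run because control library 3 held 0 of them. The 95390 to 159189 UMIs in IE-HuR-/- members limit the test to moderately and highly expressed genes.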

Other observations

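Acta1, the skeletal muscle actin gene, gave 0, 29 and 31 UMIs in control members and 29, 39 and 18 UMIs in IE-HuR-/- members. Its levels of 0, 137 and 59.5 unscaled CPM in control and 287, 409 and 113 CPM in IE-HuR-/- overlapped, and its log2 fold change of 2.15 had an edgeR adjusted p of 0.34. In tip-zone enterocytes the levels were 25.9, 22.2 and 17.2 CPM against 1321, 1314 and 1264 CPM. S100g, the vitamin D-dependent calcium-binding protein of duodenal enterocytes, gave 174, 6 and 12 UMIs in control and 1, 0 and 0 in IE-HuR-/- members. These UMIs came from 18 of 61 control and 1 of 22 IE-HuR-/- members. The highest were 2 barcodes of control library 1, at 4272 and 1767 CPM of the barcode. The ratio of control to IE-HuR-/- was 60.8 with an exact 95% interval of 10.8 to 2413, and control library 1 held most of the UMIs. Without control library 1, left out after the counts were seen, the ratio was 8.73 with an exact 95% interval of 1.38 to 364.

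Several lists had no called member among those tested. These were 12 fat oxidation genes of the PPAR-alpha type with a median log2 fold change of 0.03, 11 tight junction and adhesion genes with a median of 0.04 and 6 cholesterol synthesis genes with a median of 0.09. Epcam, an adhesion gene that marks epithelium, had a log2 fold change of -0.07. The 4 tested iron genes had a median of -0.36 and the 4 retinoid genes one of -0.30. Among members with under 3 ileal UMIs 1 of 4 iron and 1 of 3 retinoid genes were called lower, against 3.8% of all genes. Without IE-HuR-/- library 1, 1 of 4 retinoid genes was called lower, against 35 of 3033 genes. Immediate-early and heat shock genes, which respond to tissue handling, had 7 tested members, none called and a median of 0.01. Among members with under 3 ileal UMIs 1 of these 7 was called higher, against 4.1% of all genes. Of 11 tested regional transcription factors and targets none was called, and Maf, the most abundant, had a log2 fold change of 0.01. Dbp, a clock output gene, had a log2 fold change of -1.83 with an edgeR adjusted p of 0.069.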
